A study of Mus musculus with 2 samples.

Results

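The genes described here encode glucose uptake, glycolysis and lactate export: Slc2a1, Hk2, Pfkp, Aldoa, Pgk1, Eno1, Pkm, Ldha, Slc16a3 and Pdk1. They were listed by symbol as one pathway. Of the 10 symbols, 8 were found among the 19465 genes of the deposited feature lists, and Eno1 and Ldha were not analysed here. Aldoa stood under a pair of identifiers. The identifier of the known aldolase gene was used for Aldoa, and the second is given apart from it. Sums over the 8 genes, however, also include the few UMIs of the second identifier.

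Glycolysis splits glucose into pyruvate and yields ATP without oxygen. Hypoxic cells stabilise the transcription factor HIF-1, which raises transcription of glucose transporters and of most enzymes of the pathway, and they reduce pyruvate to lactate and export it instead of burning it in mitochondria. Pancreatic tumors are known for poorly perfused and hypoxic tissue. Acinar cells, the enzyme-secreting cells of the normal pancreas, devote most of their mRNA to digestive enzymes.

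Spatial transcriptomes were measured on sections of mouse pancreas tumors grown as orthotopic allografts. There was 1 library after injection of KPC-shZEB1 cells and 1 after injection of KPC-shV cells, the study's control. KPC cells are a pancreatic cancer line from mice that carried Pdx-1-Cre, and the study used mice of 4-6 weeks. Since the line carries the short hairpin, host cells in the section were not targeted. According to the study, the spatial data came from the tumor tissues of its single-cell data, and the mice of both groups there received gemcitabine. The sample labels themselves name no drug. The protocol names 2 tumors per group, while 1 library per condition was analysed. How many tumors a library covers was not settled here, and its tissue is called a section throughout. No spread between animals could be estimated. Every difference below is therefore between libraries or spots, with no test, and its interval covers counting error only.

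The library labelled KPC-shZEB1 held 2220 spots and 140493626 UMIs, and the library labelled KPC-shV held 3552 spots and 172059528 UMIs. Spots had a median of 59958 and 52545 UMIs. They shared 1718 barcodes, which encode positions on the slide. A spot is a small region with several cells, so more cells of a kind and more RNA per cell cannot be told apart. Zeb1 itself, the targeted gene, stood at 10.8 CPM (a gene's UMIs per 1000000 UMIs) in the library labelled KPC-shZEB1 and at 12.4 CPM in the other over all spots. Outside acinar-rich spots it was at 15.6 and 12.7 CPM, so that it was higher where the label calls for less, and the libraries are named by their labels throughout. Acinar-rich spots, with over 20% of UMIs from 20 acinar genes, made up 754 spots (34.0%) in the KPC-shZEB1-labelled library and 247 spots (6.95%) in the KPC-shV-labelled library. Normal pancreas thus took very unequal parts of the sections.

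On GRCm38, the build of mm10, the genes lie at chr4:119108711-119137983 (Slc2a1, plus strand), chr6:82725025-82774454 (Hk2, minus), chr13:6579768-6648777 (Pfkp, minus) and chr7:126795234-126800751 (Aldoa, minus). The others lie at chrX:106187100-106203699 (Pgk1, plus), chr9:59656368-59679375 (Pkm, plus), chr11:120948480-120960868 (Slc16a3, plus) and chr2:71873224-71903858 (Pdk1, plus). All are annotated as protein coding. The second Aldoa identifier lies at chr7:126800790-126809108, next to the first on the same strand. Its level was 2.53 CPM in the KPC-shZEB1-labelled library and 3.11 CPM in the KPC-shV-labelled library, against 658.6 and 1539 CPM for the main one.

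Since the genes varied together over spots, as described below, their promoters were searched for ACGTG and GCGTG on both strands, the core of the site that HIF-1 binds. Windows of 300 bases, from 250 before to 50 after each RefSeq transcript start, came from RefSeq on GRCm38.p6. All 10 listed genes matched, with 17 windows, of which 14 held at least 1 match. These include the windows of Eno1, with 2 matches each, and of Ldha, with 7 and 2, whose levels were not analysed. A stretch of CACGTG reads as the core on both strands and counts as 2 matches, as in the first Ldha window. Some windows of Aldoa and of Eno1 overlap and share matches, so the 17 are not separate promoters. Among all 32851 windows of this length, 43.8% held at least 1 match and 20.6% held at least 2. Shown are the promoters of Slc2a1 and Slc16a3, the genes with the lowest ratio between the libraries, and of Pgk1, whose ratio was nearest to even outside acinar-rich spots, with the matches in capitals.
Slc2a1, chr4:119108495-119108794, plus strand: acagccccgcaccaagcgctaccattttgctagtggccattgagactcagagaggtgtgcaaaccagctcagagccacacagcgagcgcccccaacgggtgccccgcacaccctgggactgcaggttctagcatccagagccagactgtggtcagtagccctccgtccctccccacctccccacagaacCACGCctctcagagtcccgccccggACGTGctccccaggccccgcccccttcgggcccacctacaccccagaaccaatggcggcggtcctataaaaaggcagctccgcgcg
Slc16a3, chr11:120948817-120949116, plus strand: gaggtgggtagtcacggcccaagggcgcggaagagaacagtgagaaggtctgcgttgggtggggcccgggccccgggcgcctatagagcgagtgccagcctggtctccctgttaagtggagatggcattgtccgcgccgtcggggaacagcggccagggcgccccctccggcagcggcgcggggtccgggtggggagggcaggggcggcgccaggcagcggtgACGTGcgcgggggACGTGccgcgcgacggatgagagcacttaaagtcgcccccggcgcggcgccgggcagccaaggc
Pgk1, chrX:106186850-106187149, plus strand: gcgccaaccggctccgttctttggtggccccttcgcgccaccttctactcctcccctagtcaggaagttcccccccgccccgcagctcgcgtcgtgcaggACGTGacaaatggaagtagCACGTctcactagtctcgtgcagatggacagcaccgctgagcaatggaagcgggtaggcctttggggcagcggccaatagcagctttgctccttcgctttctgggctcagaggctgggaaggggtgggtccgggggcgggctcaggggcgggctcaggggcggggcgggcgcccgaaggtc
Each of the 3 windows held 2 matches, written CACGT or CACGC where they lie on the other strand. The window of Hk2 held 2 and that of Pfkp 4. Pkm had windows with 0 and 2, Pdk1 with 2 and 0, and Aldoa with 0, 1 and 1. A match is only these letters, and binding was not measured.

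All 8 genes were lower in the library labelled KPC-shZEB1. Their summed level there was 2117 CPM (95% interval 2109 to 2124), against 5015 CPM (5005 to 5026) in the KPC-shV-labelled library. The log2 ratio of this sum was -1.24. Over all spots 6 of the 8 were at least 2-fold lower, where 9.21% of the 15358 genes that reached 100 UMIs on both sides were, and none of the 8 was at least 2-fold higher, where 2.4% of genes were. The median gene stood at a log2 ratio of -0.48, so that much of the transcriptome shared the sign.

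Slc2a1 differed most. Slc2a1, the glucose transporter GLUT1, had 49.3 CPM (48.2 to 50.5) in the KPC-shZEB1-labelled library and 276.8 CPM (274.3 to 279.3) in the KPC-shV-labelled library, 5.61-fold lower. Hk2, a hexokinase that traps glucose by phosphorylation, had 94.0 and 291.1 CPM, 3.1-fold lower. The ratio of Slc2a1 was below that of 99.8% of genes, and the intervals of both genes lay far apart between the libraries.

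Of the enzymes in the middle of the pathway, Pfkp, the platelet isoform of phosphofructokinase, had 48.5 and 104.2 CPM, a log2 ratio of -1.10 (-1.14 to -1.06). Aldoa, which cleaves fructose bisphosphate, had 658.6 and 1539 CPM, a log2 ratio of -1.22 (-1.24 to -1.21). Pgk1, an ATP-yielding kinase, had 316.2 and 631.7 CPM, a log2 ratio of -0.999 (-1.01 to -0.98), just short of the 2-fold limit, and was not counted among the 6. Pkm, the pyruvate kinase, had 857.7 and 1948 CPM, a log2 ratio of -1.18 (-1.19 to -1.17). These enzymes were thus lower by a similar factor. It lay near the ratio of the sum, of which Aldoa and Pkm make up most.

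Slc16a3, the lactate exporter MCT4, had 22.3 CPM (21.5 to 23.1) in the KPC-shZEB1-labelled library and 90.8 CPM (89.4 to 92.2) in the KPC-shV-labelled library, 4.07-fold lower. Pdk1, a kinase that blocks the oxidation of pyruvate in mitochondria, had 67.4 and 130.1 CPM, a log2 ratio of -0.95 (-0.98 to -0.91). The transporters at both ends of the pathway therefore had the lowest ratios, and Pdk1 the least low.

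**Figure D1:**
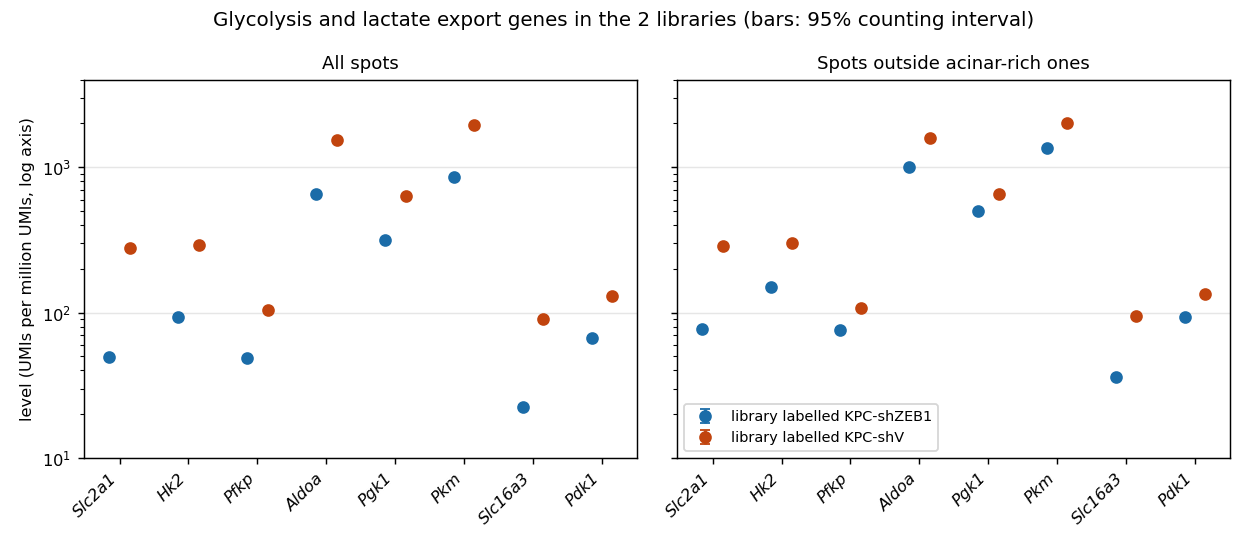
Level of each gene in CPM (log axis) in the library labelled KPC-shZEB1 (blue) and the library labelled KPC-shV (orange), over all spots (left) and outside acinar-rich spots (right). Bars are 95% counting intervals, mostly smaller than the points. All 8 genes lie lower in blue in both panels, and the gap narrows on the right, for example from 49.3 and 276.8 to 77.7 and 286.8 for Slc2a1.

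Acinar-rich spots held little of these transcripts, and leaving them out cut the differences between the libraries. Outside them 3 of the 8 genes were at least 2-fold lower in the library labelled KPC-shZEB1 (2.02% of 14389 genes were), and none was at least 2-fold higher (4.8% of genes were), with the median gene at a log2 ratio of -0.02. The 3 were Slc2a1 with 77.7 against 286.8 CPM (log2 ratio -1.88), Slc16a3 with 36.0 against 94.3 CPM (-1.39) and Hk2 with 149.5 against 301.7 CPM (-1.01). Aldoa, with 1007 against 1592 CPM, and Pkm, with 1359.9 against 2020.0 CPM, had log2 ratios of -0.66 and -0.57. Pdk1, Pfkp and Pgk1 came nearest to even, at -0.51, -0.49 and -0.39. The second Aldoa identifier went the other way, at 3.77 against 3.15 CPM.

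The libraries also differed in the makeup of these spots. Summed over 11 hypoxia genes, none of them a glycolysis gene, the level was 878.8 CPM in the KPC-shZEB1-labelled library and 1669.6 CPM in the KPC-shV-labelled library, and all 11 had a log2 ratio below 0. Summed over 9 neutrophil genes it was 150.3 and 341.6 CPM, again with all 9 below 0. The 6 tumor epithelium genes summed to 5845 and 6502 CPM, 7 macrophage genes to 2622 and 1709.9 CPM, and 4 T cell genes to 83.9 and 15.4 CPM. The part of these lists in the glycolysis ratios was not tested beyond the comparison of spots of like hypoxia and neutrophil content that follows.

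Spots outside acinar-rich ones were cut into 4 bins by their share of UMIs from the hypoxia genes, with limits at the quartiles of the library labelled KPC-shV. The lowest bin held up to 0.0596% and the highest over 0.301%. Few spots in the KPC-shZEB1-labelled library reached the highest: 570, 612, 239 and 45 spots, against 827, 826, 826 and 826. The highest bin was shallower, with a median of 46210 and 33437 UMIs a spot.

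Each of the 8 genes had a higher level in every bin than in the one below it, in both libraries. Slc2a1 went from 50.7 through 66.3 and 123.9 to 387.1 CPM in the KPC-shZEB1-labelled library, and from 85.6 through 115.8 and 249.3 to 940.9 CPM in the KPC-shV-labelled library. Between the highest and the lowest bin it was 7.63-fold and 10.99-fold higher. All 8 genes were at least 2-fold higher in the highest than in the lowest bin, in both libraries, where 5.84% of 4814 genes in the KPC-shZEB1-labelled library and 4.19% of 11069 in the KPC-shV-labelled library were. With limits set within the KPC-shZEB1-labelled library itself, 3 of the 8 fell short of 2-fold there, Hk2 at a log2 ratio of 0.81, Pfkp at 0.89 and Pkm at 0.92, Slc2a1 came to 1.496 in place of 2.93, and the sum to 1.13 in place of 1.83.

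Slc16a3 went from 17.5 through 33.1 and 71.8 to 137.1 CPM in the KPC-shZEB1-labelled library, and from 25.3 through 49.98 and 127.9 to 215.6 CPM in the KPC-shV-labelled library, log2 ratios of 2.97 (2.76 to 3.17) and 3.09 (2.999 to 3.19). Those of Slc2a1 were 2.93 and 3.46, so Slc16a3 was less steep in the KPC-shV-labelled library and did not differ beyond counting error in the other. Both transporters stood above the enzymes in the size of this gradient in both libraries, with these limits.

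Among the enzymes, Pgk1 went from 330.1 to 1679 CPM in the KPC-shZEB1-labelled library and from 268.5 to 1408 CPM in the KPC-shV-labelled library, log2 ratios of 2.35 and 2.39. Pdk1 went from 65.2 to 242.6 CPM and from 52.3 to 273.8 CPM, log2 ratios of 1.90 and 2.39. Pfkp went from 62.7 to 209.2 CPM and from 52.0 to 276.8 CPM, log2 ratios of 1.74 and 2.41. The last pair had steeper gradients in the library labelled KPC-shV, while Pgk1 did not differ beyond counting error (2.29 to 2.40 against 2.36 to 2.42).

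Hk2 went from 122.6 to 383.4 CPM in the KPC-shZEB1-labelled library and from 151.2 to 637.0 CPM in the KPC-shV-labelled library, log2 ratios of 1.65 and 2.07. Aldoa went from 718.8 to 2765 CPM and from 843.5 to 3085 CPM, log2 ratios of 1.94 and 1.87. Pkm went from 1060.4 to 2841 CPM and from 1289.9 to 3393 CPM and had the least gradient, at 1.42 and 1.40. The second Aldoa identifier had no gradient beyond counting error, at log2 ratios of 0.62 (-0.38 to 1.48) and 0.17 (-0.23 to 0.56).

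**Figure D2:**
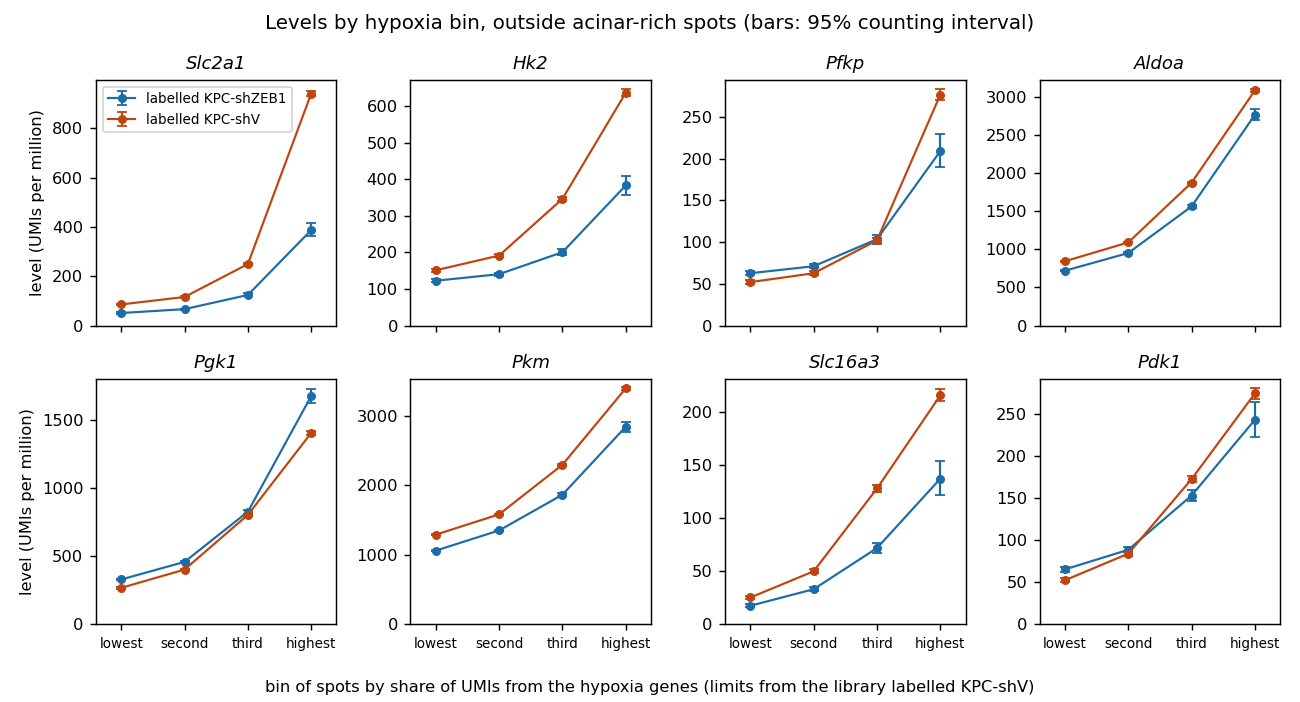
Level of each gene in CPM by bin of spots ordered by their hypoxia genes, outside acinar-rich spots, in the library labelled KPC-shZEB1 (blue) and the library labelled KPC-shV (orange); bars are 95% counting intervals. Every line climbs at each step, and the lines of Pgk1 lie close together, ending at 1679 and 1408, while those of Slc2a1 end at 387.1 and 940.9.

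Other cell markers moved with these bins, and their part in the gradients was not tested. From the lowest to the highest bin, the 6 tumor epithelium genes summed to 5008 and 9149 CPM in the KPC-shZEB1-labelled library and to 5119 and 8562 CPM in the KPC-shV-labelled library. The 8 fibroblast genes ran the other way, from 6302 to 1762 CPM and from 7627 to 1222 CPM, as did the macrophage genes, from 3210 to 847 CPM and from 2923 to 584 CPM. Acinar genes also ran the other way, from 12544 to 2040 CPM and from 6148 to 168 CPM. Neutrophil genes stayed near 156 and 166 CPM in the KPC-shZEB1-labelled library but went from 156 to 967 CPM in the KPC-shV-labelled library. High-hypoxia spots were therefore richer in tumor markers in both sections, and richer in neutrophil markers in the one labelled KPC-shV.

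At like hypoxia content, the libraries came closer, and for some genes the sign turned. Within the lowest bin Pgk1 was higher in the KPC-shZEB1-labelled library, with 330.1 against 268.5 CPM (log2 ratio 0.30, 0.26 to 0.34), and it was higher in all 4 bins, with 1679 against 1408 CPM in the highest. Pdk1 had a log2 ratio of 0.32 in the lowest bin and -0.17 in the highest, and Pfkp of 0.27 and -0.40. Pgk1 was thus lower over the whole section and higher in each hypoxia bin. It was lower, however, in spots above the medians of both hypoxia and neutrophil genes, with 842.1 against 1112 CPM (-0.40, -0.46 to -0.34). Of the spots compared, 3.07% in the KPC-shZEB1-labelled library were in the highest bin, against 25.0% in the other.

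Slc2a1, Hk2, Aldoa, Pkm and Slc16a3 stayed lower in the KPC-shZEB1-labelled library in all 4 bins. Slc2a1 had log2 ratios of -0.75, -0.80, -1.01 and -1.28 from the lowest to the highest bin. Hk2 had -0.30, -0.45, -0.79 and -0.73, and Slc16a3 had -0.53, -0.59, -0.83 and -0.65. The median gene lay between -0.07 and 0.02 in these bins, so these 3 genes remained below it in each bin.

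**Figure D3:**
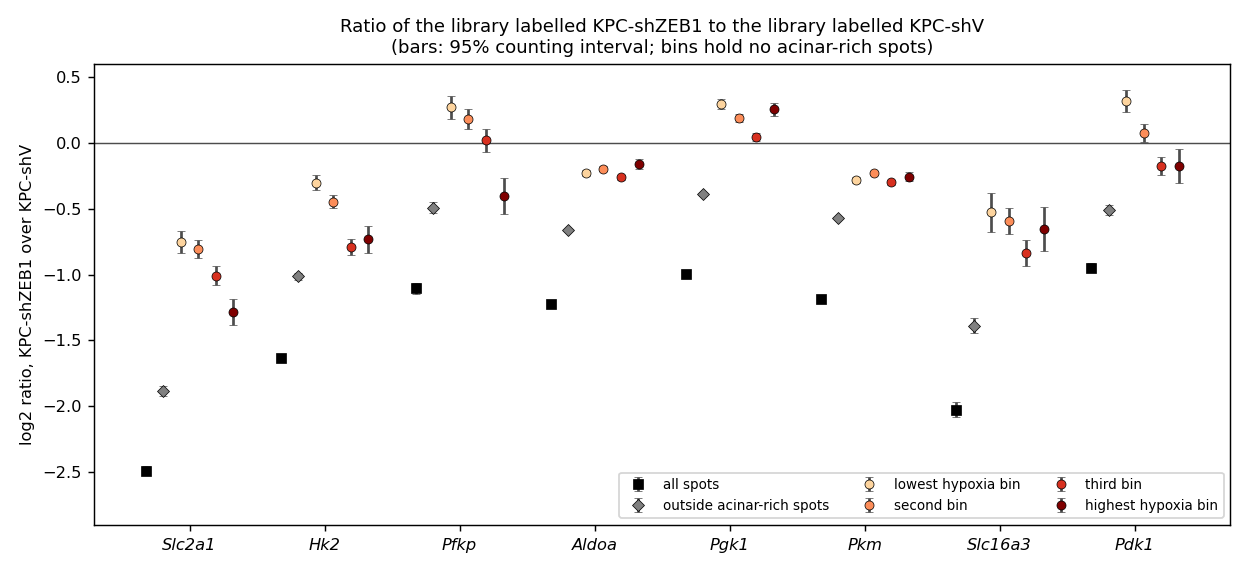
Log2 ratio of the library labelled KPC-shZEB1 over the library labelled KPC-shV for each gene: all spots (black squares), outside acinar-rich spots (grey diamonds) and within the 4 hypoxia bins (circles, darker with more hypoxia); bars are 95% counting intervals. Black lies lowest for every gene, and the circles of Pgk1 all lie above 0, from 0.04 to 0.30, while those of Slc2a1 lie between -0.75 and -1.28.

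The same spots were cut into 4 bins by their share of UMIs from 9 neutrophil genes. These held 706, 456, 255 and 49 spots in the KPC-shZEB1-labelled library and 827, 826, 826 and 826 spots in the KPC-shV-labelled library. Between the highest and the lowest bin, 1 of the 8 genes was at least 2-fold higher in the KPC-shZEB1-labelled library (3.49% of 4895 genes were), and 7 of the 8 were in the KPC-shV-labelled library (2.52% of 11186 genes were). Between the libraries, the log2 ratio of the sum was -0.21, -0.47, -0.77 and -1.27 from the lowest to the highest bin. The sections thus lay farthest apart in the highest bin, where their hypoxia genes differed too, as given below. Divided at the medians of the KPC-shV-labelled library, low-hypoxia spots gave -0.17 at low and -0.18 at high neutrophil content. High-hypoxia spots gave -0.24 and -0.63.

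Slc2a1 was the 1 gene past the limit in both, with bin limits from the KPC-shV-labelled library. From the lowest to the highest bin it had 70.0, 81.5, 80.8 and 154.3 CPM in the KPC-shZEB1-labelled library. In the KPC-shV-labelled library it had 144.8, 183.3, 288.9 and 764.2 CPM. With limits set within the KPC-shZEB1-labelled library itself, its log2 ratio there was 0.29 in place of 1.14, under 2-fold. Hk2 had 130.6 and 220.7 CPM at the ends in the KPC-shZEB1-labelled library (log2 ratio 0.76) and 206.3 and 538.9 CPM in the KPC-shV-labelled library (1.39). Slc16a3 had 33.1 and 50.6 CPM (0.61), and 59.5 and 168.8 CPM (1.503). Over these spots Slc2a1, Hk2 and Slc16a3 were thus higher with neutrophil genes in both sections, by less in the one labelled KPC-shZEB1. In low-hypoxia spots of the KPC-shV-labelled library, divided at the median of the neutrophil genes in that library, Slc2a1 (-0.051, -0.12 to 0.019) and Slc16a3 (0.016, -0.098 to 0.13) were not distinguishable from level.

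The genes between them behaved otherwise. Pgk1 had 559.2 CPM in the lowest and 485.1 CPM in the highest bin in the KPC-shZEB1-labelled library (log2 ratio -0.21, -0.30 to -0.12), and 467.7 and 1151 CPM in the KPC-shV-labelled library (1.30, 1.27 to 1.32). Pkm had 1433 and 1272 CPM (-0.17) and 1677 and 2986 CPM (0.83), and was the 1 gene under 2-fold in the KPC-shV-labelled library. Pdk1 had 99.1 and 99.9 CPM (0.01, -0.19 to 0.21) and 89.6 and 221.5 CPM (1.31). These 3 genes were level or slightly lower with neutrophil genes in one section and higher in the other. The size in the KPC-shZEB1-labelled library depended on the list, since without S100a8 and S100a9 Pgk1 had -0.69, Pkm -0.41 and Pdk1 -0.40. Pfkp had log2 ratios of 0.50 and 1.87, and Aldoa of 0.25 and 1.08. Without S100a8 and S100a9, Aldoa had -0.098 and Slc16a3 0.078 (-0.14 to 0.29) in the KPC-shZEB1-labelled library, and the sum had log2 ratios of -0.28 in place of 0.07, and of 0.77 in place of 1.14.

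**Figure D4:**
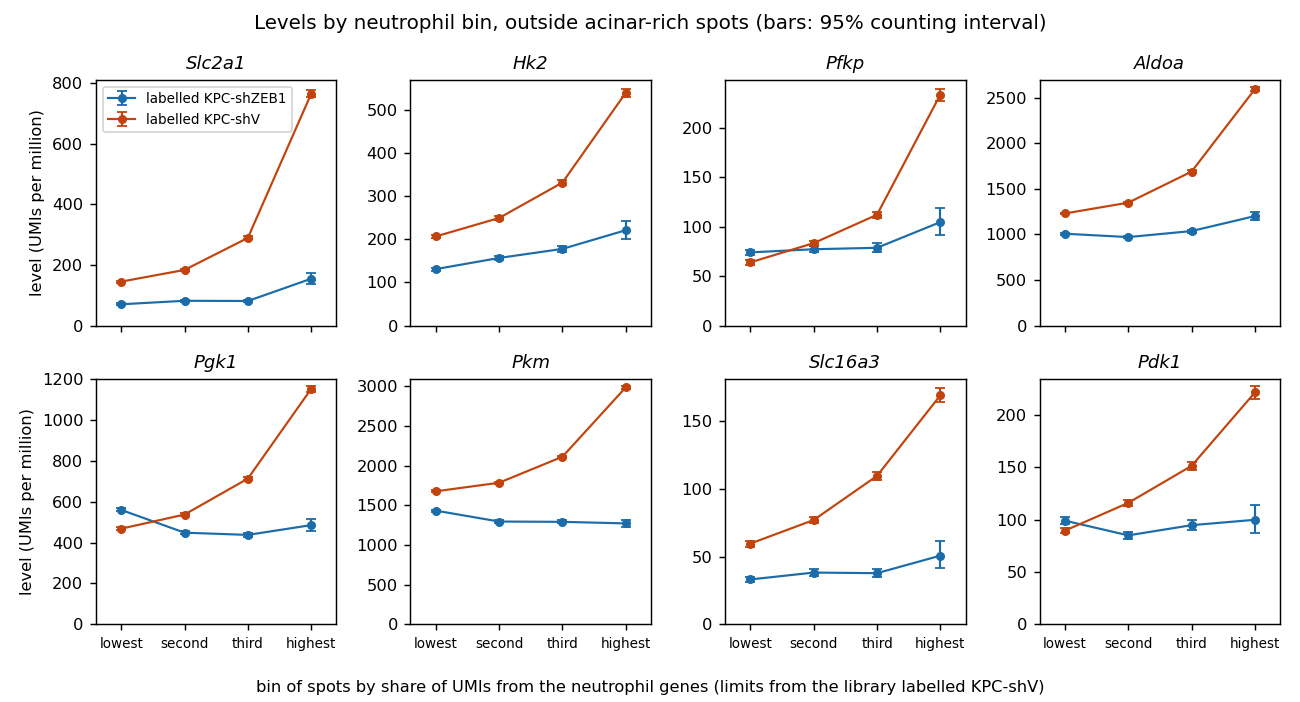
Level of each gene in CPM by bin of spots ordered by their neutrophil genes, outside acinar-rich spots, in the library labelled KPC-shZEB1 (blue) and the library labelled KPC-shV (orange); bars are 95% counting intervals. The orange lines climb for all 8 genes, while the blue lines are near flat for Aldoa, Pgk1, Pkm and Pdk1 and end at 154.3 for Slc2a1, where orange ends at 764.2.

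Hypoxia genes moved with the neutrophil bins too. They summed to 886 CPM in the lowest and 1209 CPM in the highest bin in the KPC-shZEB1-labelled library, and to 924 and 3731 CPM in the KPC-shV-labelled library. Across spots with at least 20000 UMIs the hypoxia and neutrophil sums had a Spearman correlation of -0.07 in the KPC-shZEB1-labelled library and 0.53 in the KPC-shV-labelled library. The 4 islet genes also summed to 732 CPM in the highest neutrophil bin in the KPC-shZEB1-labelled library, against 24.8 CPM in the lowest, and the part of islet tissue was not tested. Macrophage genes ran from 2164 to 3569 CPM in the KPC-shZEB1-labelled library and from 1928 to 847 CPM in the other, and tumor epithelium genes from 5740 to 4655 CPM and from 6131 to 7642 CPM. The part of these lists in the neutrophil ratios was not tested. The highest bins were shallow, at a median of 41331 and 26378 UMIs a spot.

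To separate the lists, spots were divided at the medians of the library labelled KPC-shV for hypoxia and for neutrophil genes. Among spots low in both, the 8 genes summed to 2819 CPM in the KPC-shZEB1-labelled library and 3177 CPM in the KPC-shV-labelled library. Among spots low in hypoxia and high in neutrophil genes they summed to 2838 and 3212 CPM, which is nearly level with the first group. Among spots high in hypoxia and low in neutrophil genes they summed to 5454 and 6436 CPM. The sum was thus higher with hypoxia content where neutrophil genes were low, and differed little with neutrophil content where hypoxia genes were low, by log2 ratios of 0.0095 (-0.0063 to 0.025) and 0.016 (0.0033 to 0.028). Single genes moved more there, among them Hk2 at 0.40 and Slc2a1 at 0.30 in the KPC-shZEB1-labelled library.

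Where both were high, the libraries parted. The 8 genes summed to 5316 CPM over 50 spots in the KPC-shZEB1-labelled library and to 8234 CPM over 1186 spots in the KPC-shV-labelled library. Slc2a1 had 154.3 CPM in high-hypoxia spots low in neutrophil genes and 184.2 CPM in those high in them in the KPC-shZEB1-labelled library, against 307.4 and 626.2 CPM in the KPC-shV-labelled library. Within the upper group the hypoxia genes themselves summed to 1948 and 2054 CPM in the KPC-shZEB1-labelled library, and to 2110 and 3355 CPM in the KPC-shV-labelled library. High neutrophil content therefore went together with a further step in hypoxia genes in the library labelled KPC-shV, which this division did not remove.

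Gene by gene, the spread was as follows. In low-hypoxia spots the log2 ratio of high over low neutrophil content lay between -0.21 for Pgk1 and 0.40 for Hk2 in the KPC-shZEB1-labelled library, and between -0.05 for Slc2a1 and 0.24 for Pfkp in the KPC-shV-labelled library. In high-hypoxia spots it lay between -0.21 for Pgk1 and 0.33 for Hk2, and between 0.26 for Pdk1 and 1.03 for Slc2a1. Between high and low hypoxia, at low neutrophil content, it lay between 0.72 for Pkm and 1.63 for Slc16a3 in the KPC-shZEB1-labelled library, and between 0.74 for Pkm and 1.87 for Slc16a3 in the KPC-shV-labelled library.

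**Figure D5:**
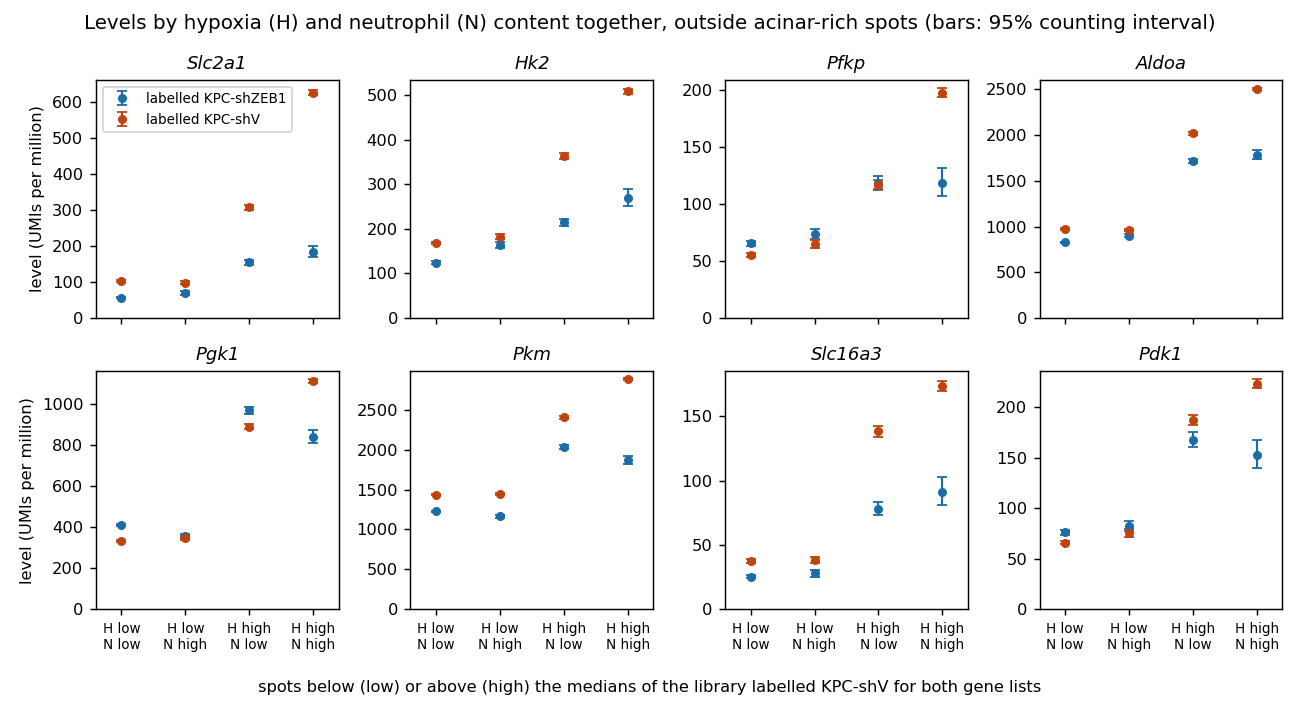
Level of each gene in CPM in spots low or high in hypoxia genes (H) and in neutrophil genes (N), divided at the medians of the library labelled KPC-shV, outside acinar-rich spots; blue is the library labelled KPC-shZEB1, orange the library labelled KPC-shV, and bars are 95% counting intervals. Levels are low in both H low groups and high in both H high groups, and the libraries lie farthest apart where both lists are high, at 184.2 and 626.2 for Slc2a1.

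In acinar-rich spots all 8 genes were lower than in the other spots of the same section. Their sum was 262.2 against 3304 CPM in the KPC-shZEB1-labelled library and 375.9 against 5195 CPM in the KPC-shV-labelled library, log2 ratios of -3.66 and -3.79. Most genes were low there: 88.2% of 9830 genes in the KPC-shZEB1-labelled library and 59.6% of 5254 in the KPC-shV-labelled library were at least 2-fold lower, with the median gene at -2.29 and -1.24. Of the glycolysis genes, 7 and 6 had at least 100 UMIs on both sides, and all of these were at least 2-fold lower.

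Slc16a3 was lowest relative to the other spots, with 48 UMIs (0.875 CPM) against 36.0 CPM in the KPC-shZEB1-labelled library, and 4 UMIs (0.624 CPM, 0.170 to 1.60) against 94.3 CPM in the KPC-shV-labelled library. Pgk1 had 29.0 against 500.01 CPM and 24.5 against 655.2 CPM, log2 ratios of -4.11 and -4.74. Hk2 had -4.32 and -4.11, Pkm -4.21 and -4.37, and Slc2a1 -3.97 and -3.96. These genes were lower than the median gene by more than 1 log2 unit in both sections.

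Pdk1 was the exception. It had 26.2 against 93.8 CPM in the KPC-shZEB1-labelled library and 40.4 against 133.6 CPM in the KPC-shV-labelled library, log2 ratios of -1.84 and -1.73, and the first was above that of the median gene. Scaled by the median of ratios, Pdk1 turned to 0.45 in the KPC-shZEB1-labelled library. Aldoa had 115.1 and 161.4 CPM in acinar-rich spots, at -3.13 and -3.30, and Pfkp 4.58 and 13.6 CPM, at -4.06 and -2.99. Acinar genes fill much of the total of these spots, which by construction lowers the CPM of every other gene, so each ratio is best read beside that of the median gene.

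The levels followed acinar content in steps. In spots with up to 5%, 5 to 20%, 20 to 40% and over 40% of UMIs from acinar genes, the 8 genes summed to 3370, 1590, 700.7 and 225.9 CPM in the KPC-shZEB1-labelled library and to 5246, 1020.3, 470.1 and 297.7 CPM in the KPC-shV-labelled library. In the group with 5 to 20% the library labelled KPC-shZEB1 was thus higher, with 642.5 against 320.1 CPM for Pkm and 199.0 against 74.4 CPM for Pgk1, over 81 and 121 spots. Slc2a1 was at 37.4 and 37.7 CPM there. The spots of this group differed in depth, with a median of 38852 UMIs in the KPC-shZEB1-labelled library and 15107 in the other. Of them, 17 and 72 spots had under 20000 UMIs. The part of depth in this difference was not tested.

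The other genes of the pathway spread around 0 between the libraries outside acinar-rich spots. Of 23 other glycolysis genes measured, 20 had at least 100 UMIs in both. Of these, 1 was at least 2-fold lower in the KPC-shZEB1-labelled library (2.02% of all genes were) and 3 were higher (4.8% of all genes were). The 20 genes had log2 ratios from -1.42 to 2.02, with a median of 0.09 beside -0.02 for all genes. Eno3, the muscle enolase, had 45.9 against 122.7 CPM (-1.42). Among the higher ones, Hk3, a hexokinase of myeloid cells, had 66.2 against 31.6 CPM (1.07), and Pgam2, the muscle mutase, 2.79 against 1.27 CPM (1.13). Over all spots 4 of 22 were lower (Eno3, Pfkl, Pgam1 and Hk1), where 9.21% of all genes were. Another 2 were higher, Slc16a7 among them, where 2.4% of all genes were. The median was -0.46 beside -0.48.

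Isoforms of the described genes showed different ratios outside acinar-rich spots. Slc2a3, another glucose transporter, had 9.27 and 9.14 CPM, and Hk1 had 123.2 and 161.9 CPM, log2 ratios of 0.02 and -0.39 beside -1.88 for Slc2a1 and -1.01 for Hk2. The phosphofructokinases Pfkl and Pfkm stood at -0.57 and 0.16 beside -0.49 for Pfkp. Slc16a1, the lactate and pyruvate transporter MCT1, had 91.4 and 72.8 CPM (0.33), against -1.39 for Slc16a3, and Bsg, the chaperone of both transporters, 922.7 and 1154 CPM (-0.32). Pdk2, Pdk3 and Pdk4 stood at 0.43, 0.39 and 0.40 beside -0.51 for Pdk1. Aldoc stood at 0.77 and Pklr, the liver pyruvate kinase, at 0.91. Slc2a1, Hk2, Slc16a3 and Pdk1 thus each had a lower ratio than the isoforms named here. Gapdh had 3.48 and 2.39 CPM, a low level that is not compared with other genes, since probes differ in number and strength.

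With hypoxia content, part of the other glycolysis genes moved as the described ones did. In the KPC-shZEB1-labelled library, 6 of 10 with enough UMIs were at least 2-fold higher in the highest than in the lowest bin (5.84% of all genes were). In the KPC-shV-labelled library 7 of 16 were (4.19% of all genes were), with 1 lower. Past the limit in both were Gpi1, the isomerase (log2 ratios 1.45 and 1.55), Pfkl (1.84 and 2.497), Bsg (1.99 and 1.46), Pgam1 (1.57 and 1.31) and Aldoc (1.11 and 1.48). Pfkfb3, which makes an activator of phosphofructokinase, had 1.94 and 2.29, the first with 97 UMIs and so under the minimum. Slc2a3 stood at 1.27 and Hk1 at 0.97 in the KPC-shV-labelled library.

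Mitochondrial genes were near level with hypoxia content. None of the 10 measured oxidative phosphorylation genes was 2-fold higher or lower with it in either library. Few genes were, with 5.84% and 4.19% of all genes 2-fold higher, so this count says little of these 10. Their medians were -0.18 and -0.11, beside 0.14 and -0.02 for all genes. Across spots with at least 20000 UMIs, their sum had Spearman correlations with the sum of the 8 genes of 0.29 in the KPC-shZEB1-labelled library and -0.01 in the other. Between the libraries outside acinar-rich spots their median was 0.22, beside -0.02 for all genes, with 9 of 10 above 0. The 8 measured genes of pyruvate entry into mitochondrial metabolism had a median of 0.26 there, and none was past 2-fold (2.02% of genes were lower and 4.8% higher). Of 4 regulators, Hif1a, the oxygen-regulated subunit of HIF-1, stood at 0.16 between the libraries and at -0.45 and -0.22 with hypoxia content, where HIF-1 is known to be set by protein stability. Myc, an activator of glycolysis genes, stood at -0.49 between the libraries, with 328.5 and 462.3 CPM, and at 0.79 and 1.08 with hypoxia content, while Epas1 was at -1.79 in the KPC-shV-labelled library.

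Single spots varied widely. Over 1412 spots in the KPC-shZEB1-labelled library and 2673 spots in the KPC-shV-labelled library with at least 20000 UMIs outside acinar-rich ones, Slc2a1 had a median of 58.3 and 153.0 CPM, and the spot at the 90th percentile had 10.99 and 19.01 times the level of the spot at the 10th. For Pkm this ratio was 3.42 in both libraries, and for Aldoa 3.61 and 4.70. Slc16a3 had no UMI in 30.9% and 13.0% of these spots. Its 10th percentile was 0 CPM in both, so it has no such ratio. Among the other 7 genes, this ratio in the KPC-shV-labelled library was highest for Slc2a1 and lowest for Pkm. Counting error widens the ratio of a gene with few UMIs a spot, and its part was not tested. Slc2a1 had no UMI in 8.50% and 1.68% of these spots, and Pkm in 0% of them in both libraries.

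Across these spots each gene correlated with the sum of the hypoxia genes, with Spearman correlations from 0.34 for Hk2 to 0.67 for Aldoa in the KPC-shZEB1-labelled library and from 0.68 for Pfkp to 0.89 for Aldoa in the KPC-shV-labelled library. With the neutrophil genes they lay between -0.20 for Pgk1 and 0.14 for Hk2, and between 0.42 for Slc16a3 and 0.48 for Pfkp. The 28 pairs of described genes had correlations from 0.25 (Slc2a1 and Pdk1) to 0.81 (Pgk1 and Pkm), and from 0.53 (Pfkp and Slc16a3) to 0.92 (Aldoa and Pgk1). Spots of a section share a library and a total, and low counts weaken such correlations, so these are descriptions without a test.

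With the sum of the macrophage genes the correlations were negative for all 8 genes, from -0.54 to -0.14 in the KPC-shZEB1-labelled library and from -0.76 to -0.38 in the KPC-shV-labelled library. With the tumor epithelium genes they were positive, from 0.11 to 0.44 and from 0.35 to 0.65. With the proliferation genes they lay between 0.01 and 0.45 in the KPC-shZEB1-labelled library but between -0.39 and -0.13 in the KPC-shV-labelled library. Slc2a1 and Pfkp also correlated with UMIs per spot at -0.30 and -0.40 in the KPC-shV-labelled library, where high-hypoxia spots were shallow.

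The genes most like the sum of the 8 over spots were named by the lower of the Pearson correlations in both libraries, on log2(CPM + 50), among 2003 genes with at least 100 CPM. Mif, a cytokine, had 0.82 in the KPC-shZEB1-labelled library and 0.91 in the KPC-shV-labelled library, and Egln3, an oxygen sensor that is also one of the hypoxia genes, 0.79 and 0.89. Fam162a had 0.76 and 0.91, Igf2bp2, an RNA-binding protein gene, 0.72 and 0.81, and Anxa2, an annexin, 0.71 and 0.76. Among those that followed, Bhlhe40 had 0.70 and 0.78, and Eif4ebp1 0.63 and 0.73. The median of all genes compared was 0.24 and 0.12. Between the libraries outside acinar-rich spots, Fam162a and Igf2bp2 stood at log2 ratios of -0.77 and -0.88, and Anxa2 at 0.02, so likeness over spots did not carry the same difference between sections.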

How the data were processed

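Visium CytAssist libraries read probes hybridised to mRNA, and 1 library per condition was analysed. The authors processed the reads with Space Ranger 2.0.1 on mm10, and deposited UMI counts per gene and tissue spot, used here as raw counts. Since probes differ in number and strength between genes, levels were compared within a gene or within a fixed sum of genes. Such a sum follows mostly its genes with the most UMIs. Counts were summed over spots and divided by all UMIs (CPM), with exact Poisson intervals of 95%; log2 ratios had exact conditional binomial intervals. Both cover counting error only, and with 1 library per condition no test was run. Ratios were counted where both sides held at least 100 UMIs. The scripts were tested on simulated data. Of 19465 features, 19451 were placed through GENCODE M21. Python 3.11.15, numpy 2.4.6, scipy 1.17.1, pandas 2.3.3 and matplotlib 3.10.9 were used.

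The genes and all lists were chosen with earlier results of these data known. Named were all members, isoforms of a member and pathway genes past 2-fold, and the 8 genes most like the members over spots. Of the hypoxia list Mxi1 and Higd1a, and of the acinar list 4 of 24 genes, were not analysed here. The alternatives varied spots, scaling, lists and limits. Some genes counted in these lists are not reported here by name.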

Additional observations from a re-analysis of the deposited data

Results flagged for a closer look

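Pgk1 and Pkm went opposite ways with neutrophil content in the libraries. Between the highest and the lowest neutrophil bin, Pgk1 had a log2 ratio of -0.21 in the library labelled KPC-shZEB1 and of 1.30 in the library labelled KPC-shV, and Pkm had -0.17 and 0.83. With 1 library per condition the difference between them was not tested. In the KPC-shZEB1-labelled library 27.1% of genes had a ratio below that of Pgk1 and 30.7% below that of Pkm, with the median gene at -0.02. The highest bin in the KPC-shZEB1-labelled library held 49 spots. Within high-hypoxia spots of that library, with only part of those 49 in the highest bin, the same bins gave 0.24 and 0.20. Its high-hypoxia spots divided at the KPC-shV-labelled library's median of neutrophil genes gave -0.21 for Pgk1 and -0.12 for Pkm. In the KPC-shV-labelled library this division gave 0.32 for Pgk1 and 0.26 for Pkm in high-hypoxia spots. In its low-hypoxia spots it gave 0.057 and 0.0044, so both genes were near level there.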

How the results depend on the processing

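No paired analysis was possible because each condition had 1 library, and for the same reason no replicate could be left out. All values are log2 ratios of the summed level unless a gene is named. Between the libraries (-1.24 over all spots), leaving out spots over 20%, 5% or 40% acinar gave -0.65, -0.64 and -0.68, a total without acinar genes -0.89, scaling by the median of ratios -0.76, the mean of each spot's CPM -1.23, and leaving out the top 5% of spots -1.34. Weighting the hypoxia bins as in the library labelled KPC-shV, done outside acinar-rich spots, gave -0.24 beside the -0.65 there. It turned Pgk1 to 0.18. Averaging the genes' ratios over all spots gave -1.45. Both settings were chosen after seeing the data. With hypoxia content the library labelled KPC-shZEB1 (1.83) gave 1.13 with its own bin limits, 1.80 with Car9, Ndrg1 and Egln3 alone, 1.80 in low-neutrophil spots, 1.79 at an acinar limit of 5%, 1.69 with the scaling by ratios, 1.94 by spot means and 2.11 by the genes' mean. The library labelled KPC-shV (1.88) gave 1.85 without spots under 20000 UMIs, 1.86 with the 3 genes and 1.83 without them, 1.76 in low-neutrophil spots, 1.86 at the acinar limit of 5%, and 1.90, 2.09 and 2.39 by the last settings. With neutrophil content the library labelled KPC-shZEB1 (0.07) gave -0.13 with its own limits, 0.031 without shallow spots, -0.28 without S100a8 and S100a9, -0.12 and 0.43 in low- and high-hypoxia spots, and 0.36 by the genes' mean. Aldoa turned to -0.010 and -0.098 under the first and the third of these, where Pdk1 (0.01) gave -0.15 and -0.40, and Pgk1 and Pkm turned to 0.24 and 0.20 in high-hypoxia spots. The library labelled KPC-shV (1.14) gave 1.08 without shallow spots, 0.77 without S100a8 and S100a9, 0.093 and 0.60 in low- and high-hypoxia spots, and 1.17, 1.37 and 1.46 by scaling, spot means and the genes' mean; Slc2a1 turned to -0.031 in low-hypoxia spots. For acinar-rich spots labelled KPC-shZEB1 (-3.66), limits of 5% and 40% gave -3.33 and -3.82, a total without acinar genes -2.43, scaling -1.37, where Pdk1 turned to 0.45, and the genes' mean -3.88. Those labelled KPC-shV (-3.79) gave -3.31, -4.10, -3.08, -2.55, -4.06 by the genes' mean and -3.86 without shallow spots. Slc16a3 has no value there at 40%, with 0 UMIs.

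Counts of genes past the limit depend on it. At a log2 limit of 0.5 and at a minimum of 1000 UMIs, the 1415 lower and 369 higher genes between the libraries became 7377 and 928, and 921 and 137. Outside acinar-rich spots 290 and 690 became 1345 and 1988, and 128 and 264. With hypoxia, 281 and 464 higher genes became 951 and 1517, and 30 and 232. With neutrophil genes, 171 and 282 became 565 and 1013, and 17 and 113. In acinar-rich spots 8666 and 3129 lower genes became 2031 and 105 at 1000 UMIs. The cause of these shifts was not tested. Over the 8 genes, all 64 alternatives with hypoxia in each library kept their sign.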
